A study of Mus musculus with 24 samples.

Results

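The 9 genes of neuropeptide processing described here were chosen by measured values of these arrays, taken here to be the line values of Pam: Pam, the gene of the enzyme that amidates peptides, read higher in mice bred for high freezing than in mice bred for low freezing.
The list held Pam, the convertase genes Pcsk1 and Pcsk2, the convertase inhibitor and chaperone genes Pcsk1n and Scg5, the carboxypeptidase gene Cpe, and the granin genes Scg2, Chga and Chgb. A member was measured where the platform annotation gives a probe set (the group of probes for 1 transcript on these arrays) that single gene symbol. On that rule 8 of the 9 listed genes were measured, by 9 probe sets, out of 18193 named genes and 45037 probe sets. Cpe had 2 probe sets and every other measured gene had 1. Pcsk2 was not analysed here.

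The samples were amygdala and hippocampus of male mice from 2 breeding lines. The groups were amygdala of line 25, the high freezing line, amygdala of line 24, the low freezing line, hippocampus of line 25 and hippocampus of line 24, with 6 Affymetrix arrays each and 24 in all. Freezing is the motionless fear response, and contextual fear conditioning, which the series title names as the trait selected, pairs a chamber with a shock. The labels do not give the age of the mice, any treatment or any pooling of RNA. The labels do not say whether arrays with the same number in the 2 tissues came from 1 mouse. Each line is a single breeding line, so effects of selection and of drift between the lines cannot be told apart, and the p-values measure only the spread between arrays.

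Neuropeptides are made as larger precursors that are packed into dense core granules and cut there at basic residues by the convertases of the Pcsk1 and Pcsk2 genes. Cpe then trims the basic residues from the cut ends, and where a glycine is exposed Pam converts it to an amide, a step that needs copper, ascorbate and oxygen. Granins are acidic proteins that help to form the granules and are themselves cut into peptides, and amygdala and hippocampus both contain neurons that release such peptides.

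Promoter sequences are shown for Pam, the gene on which the line comparison turns, and for the 4 measured members whose 120 bases before the start hold the letters of the cAMP response element or its first 5 letters. The starts are those of the RefSeq table of build GRCm38.p6, which held windows for 8 of the 9 listed genes, all but Cpe. The stretches are chr1:98095647-98095766 on the minus strand for Pam, chr13:75089737-75089856 on the plus strand for Pcsk1, chr1:79440027-79440146 on the minus strand for Scg2, chr2:132781522-132781641 on the plus strand for Chgb and chr12:102554821-102554940 on the plus strand for Chga, each written 5′ to 3′ along its gene. Capitals mark TGACGTCA in Pcsk1, Scg2 and Chgb, TGACG in Chga, and CCGCCC, the other strand of the GC box GGGCGG, in Pam.
Pam: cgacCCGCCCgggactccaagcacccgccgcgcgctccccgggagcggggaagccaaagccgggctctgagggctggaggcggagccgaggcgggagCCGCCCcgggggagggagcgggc
Pcsk1: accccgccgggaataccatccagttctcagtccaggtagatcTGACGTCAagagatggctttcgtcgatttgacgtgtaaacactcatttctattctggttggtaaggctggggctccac
Scg2: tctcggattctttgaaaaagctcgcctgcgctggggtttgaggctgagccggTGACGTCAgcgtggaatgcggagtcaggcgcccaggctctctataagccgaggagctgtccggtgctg
Chgb: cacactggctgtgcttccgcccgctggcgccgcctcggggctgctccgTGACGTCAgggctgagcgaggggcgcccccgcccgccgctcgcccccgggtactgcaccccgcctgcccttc
Chga: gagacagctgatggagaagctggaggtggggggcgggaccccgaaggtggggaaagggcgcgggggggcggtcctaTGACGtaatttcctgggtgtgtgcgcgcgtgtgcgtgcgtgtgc
The cAMP response element is the site that CREB family transcription factors bind. Its letters TGACGTCA began 78 bases before the start in Pcsk1, 68 bases before in Scg2 and 72 bases before in Chgb. With both strands searched over windows of 250 bases before to 50 after a start, 3 of the 8 genes with a window held TGACGTCA, against 1.79% of all 32851 windows. The shorter TGACG, which lies within TGACGTCA, was in 6 of the 8 genes and in 20.8% of all windows, and GGGCGG was in 7 of the 8 genes and in 35.7% of all windows. Pam has 2 overlapping windows in the table, and neither held TGACGTCA or TGACG. Of the 3 genes that share TGACGTCA, Pcsk1 and Scg2 were higher and Chgb was lower in amygdala, as given below. A link between these letters and the tissue differences was not tested. A match is a run of letters, and binding was not measured.

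Pam, whose values in the 2 lines are taken to have led to the list, had a signal (linear intensity) with a lowest, median and highest value of 614, 901 and 969 in the 6 amygdala arrays of the high line and of 266, 359 and 678 in those of the low line. In hippocampus the lowest, median and highest were 752, 855 and 903 in the high line and 250.5, 407 and 713 in the low line. In hippocampus every high line array lay above every low line array, a separation that 287 of the 45037 probe sets (0.637%) showed in either direction. In amygdala 5 of the 6 high line arrays lay above all low line arrays. The exceptions were array 11 of the high line, at 614, and array 5 of the low line, at 678. Full non-overlap of the lines in amygdala, which Pam did not show, was seen for 0.402% of probe sets in either direction. The share with a partial separation like that of Pam was not computed.

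On the log2(signal + 16) scale, used for all means and differences here, Pam averaged 9.75 ± 0.24 in amygdala of the high line and 8.62 ± 0.50 in amygdala of the low line (SD, n = 6 each). In hippocampus it averaged 9.75 ± 0.09 in the high line and 8.73 ± 0.53 in the low line. The line difference, high minus low, was 1.13 ± 0.21 in amygdala and 1.02 ± 0.20 in hippocampus (SE), which is a 2.19-fold and a 2.03-fold difference. The 2 high line means were alike in the 2 tissues, and the low line arrays were the more spread: the SD was 0.50 and 0.53 in the low line, against 0.24 and 0.09 in the high line. Averaged over the tissues, the difference was 1.08 ± 0.15, and 15 of the 45037 probe sets had a larger one. These values are given without a test because the gene is taken to have been chosen on them. Probe set 1418908_at alone reads Pam here, so no other probe set of Pam could be compared with it.

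**Figure D1:**
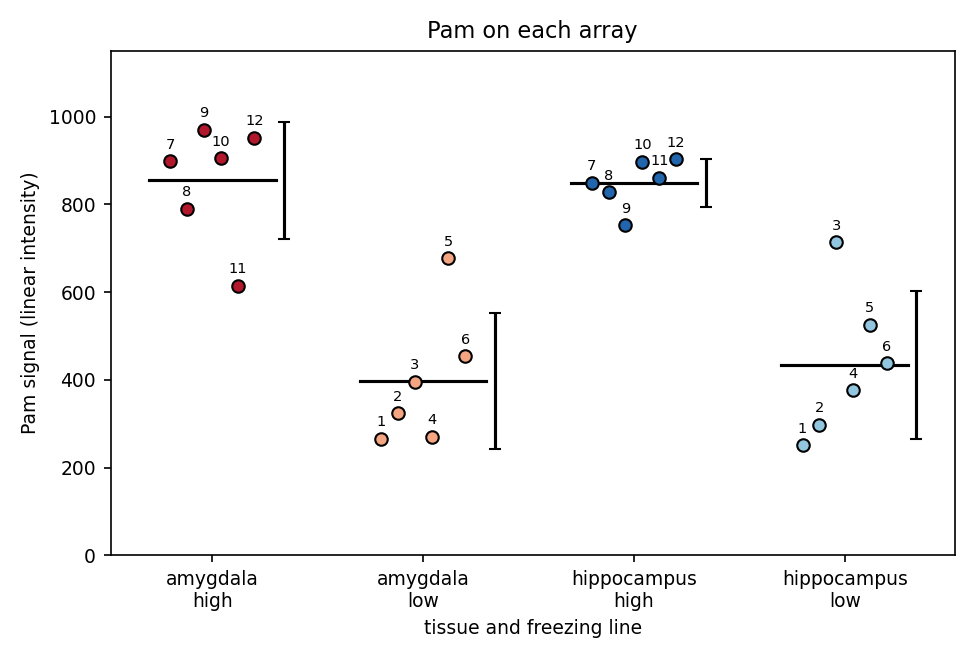
Pam signal (linear intensity) of probe set 1418908_at on each of the 24 arrays, by tissue and line, with the array number beside each point, the group mean as a line and its SD (n = 6) as a bar. The high line arrays lay between 614 and 969 and the low line arrays between 250.5 and 713.

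None of the other members had a line difference as large as that of Pam in either tissue. Counted at an adjusted p under 0.05 (limma, Benjamini-Hochberg), 0 of the 9 member probe sets were called between the lines in amygdala, where 0.00222% of all probe sets were. In hippocampus 0 of 9 were called, against 0.0222% of all. Averaged over the tissues, 1 of 9 was called, against 0.238% of all. At an unadjusted p under 0.05 there were 1 of 9 in amygdala and 2 of 9 in hippocampus, against 6.54% and 8.97% of all probe sets. These counts include Pam, which is taken to have been chosen on its line values. They are therefore no test of it, and nothing is read from them.

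Among the convertase genes, Pcsk1, which encodes a convertase of neuroendocrine granules, had a line difference of -0.16 ± 0.19 in amygdala and 0.37 ± 0.18 in hippocampus. In hippocampus 4 of the 6 high line arrays lay above all low line arrays. Pcsk1n, which encodes the precursor of an inhibitor of that convertase, differed by 0.11 ± 0.12 in amygdala and by -0.04 ± 0.10 in hippocampus. The difference of Scg5, which encodes the chaperone of the Pcsk2 convertase, was -0.11 ± 0.12 in amygdala and 0.02 ± 0.12 in hippocampus.

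The brighter probe set of Cpe differed by -0.01 ± 0.07 in amygdala and by -0.02 ± 0.07 in hippocampus. Its dim probe set differed by -0.46 ± 0.26 and -0.57 ± 0.33. Among the granins, Scg2 differed by -0.01 ± 0.11 in amygdala and by -0.07 ± 0.07 in hippocampus, and Chgb by 0.02 ± 0.06 and -0.10 ± 0.06. Chga was the exception, with 0.15 ± 0.10 in amygdala and -0.35 ± 0.10 in hippocampus. In hippocampus 5 of the 6 high line arrays lay below all low line arrays both for Chga and for Chgb. The share of all probe sets with such a partial separation was not computed, here or for Pam and Pcsk1 above. Nothing is read from it, since line values are taken to have led to the list.

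**Figure D2:**
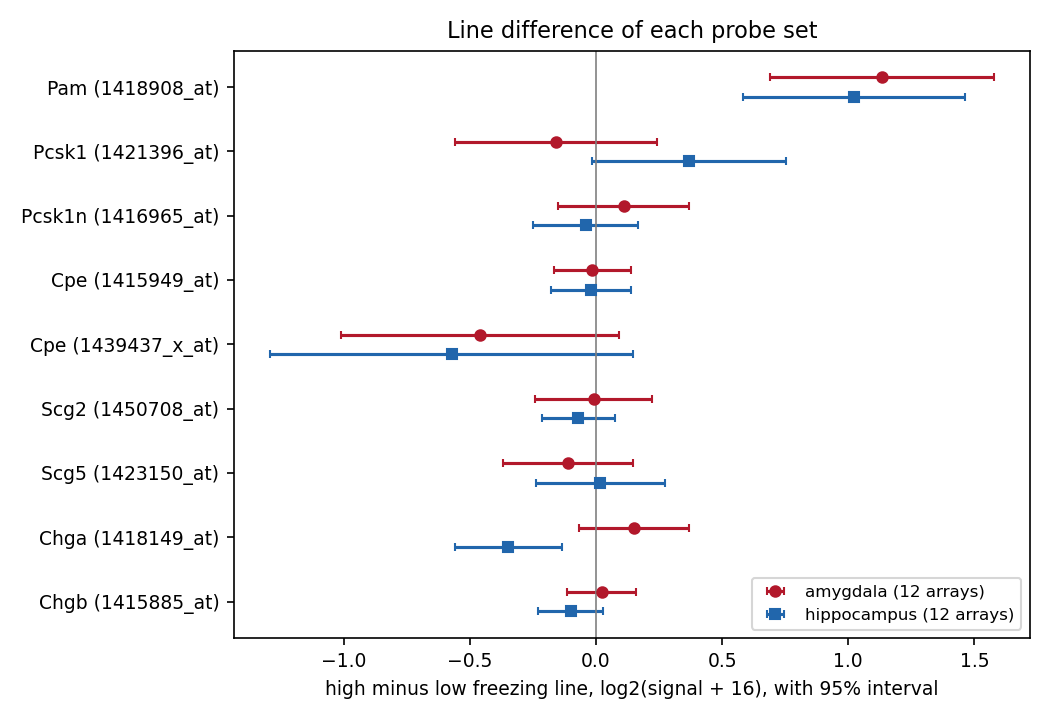
Line difference, high minus low, of each member probe set on the log2(signal + 16) scale, in amygdala and in hippocampus (12 arrays each), with 95% intervals. Pam stood at 1.13 and 1.02, and the other 8 probe sets lay between -0.57 and 0.37.

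The tissue comparison does not use the line values, and it was tested. It asked which members differ between amygdala and hippocampus, over both lines and within each line. Over the 24 arrays 7 of the 9 member probe sets were called, 4 higher and 3 lower in amygdala. Of all probe sets 25.8% were called, 12.9% higher and 12.9% lower, and of those with a mean of at least 8 on the log2 scale 52.1% were called, against 6 of the 7 member probe sets that bright. Within the high line 4 of 9 were called (15.4% of all), and within the low line 3 of 9 (12% of all). Fewer cells of a type and less RNA per cell cannot be told apart in these tissue pieces.

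Pcsk1 was higher in amygdala. Its signal had a lowest, median and highest value of 40.1, 79.0 and 103.0 in the 12 amygdala arrays, against 28.0, 52.3 and 86.3 in the 12 hippocampus arrays. The tissues overlapped, with 4 amygdala arrays above all hippocampus arrays. The difference, amygdala minus hippocampus, was 0.41 ± 0.13 (SE, adjusted p = 0.0247), which is 1.33-fold. In the low line all 6 amygdala arrays lay above all 6 hippocampus arrays (8.86% of all probe sets separated there in either direction), at 0.67 ± 0.14 (adjusted p = 0.00644). In the high line the difference was 0.15 ± 0.21 (adjusted p = 0.698), and its lowest amygdala values, 40.1 and 42.9, came from arrays 7 and 8. Without those arrays it was 0.44 ± 0.17 (adjusted p = 0.131). The difference between the lines in this tissue difference, -0.53 ± 0.27, did not pass (adjusted p = 0.709), and without those arrays it was -0.24 ± 0.22 (adjusted p = 0.914).

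Pcsk1n was also higher in amygdala, by 0.30 ± 0.08 (adjusted p = 0.00491), or 1.23-fold. Its amygdala signals ran from 979 to 1530 around a median of 1192, and its hippocampus signals from 815 to 1161 around a median of 983. Of the 12 amygdala arrays 7 lay above all hippocampus arrays. Within a single line it did not pass, at 0.37 ± 0.12 in the high line (adjusted p = 0.0537) and 0.22 ± 0.10 in the low line (adjusted p = 0.175). In the high line it passed without amygdala array 11 (0.42, adjusted p = 0.0427) or array 12 (0.42, adjusted p = 0.0448), and without arrays 7 and 8, described below, it was 0.23 ± 0.10 (adjusted p = 0.210).

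Scg5 was lower in amygdala by -0.27 ± 0.08 (adjusted p = 0.0189). Its amygdala signals ran from 1708 to 2986 with a median of 2312, and its hippocampus signals from 2281 to 3953 with a median of 2813. The tissues overlapped, and 4 amygdala arrays lay below all hippocampus arrays. It did not pass in the high line (-0.34 ± 0.11, adjusted p = 0.0646) or in the low line (-0.21 ± 0.12, adjusted p = 0.351). Without amygdala array 9 it passed in the high line (-0.42, adjusted p = 0.0131). Without arrays 7 and 8 it passed neither over both lines (-0.23 ± 0.08, adjusted p = 0.0538) nor in the high line (-0.25 ± 0.11, adjusted p = 0.176).

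The brighter probe set of Cpe, 1415949_at, was lower in amygdala. Its signals lay between 7577 and 9237 in amygdala, around a median of 8566, and between 9378 and 11584 in hippocampus, around a median of 10107. Every amygdala array lay below every hippocampus array, which 4.91% of all probe sets showed in either direction. The difference was small, -0.25 ± 0.05 (adjusted p = 1.87e-04), with -0.25 ± 0.06 in the high line (adjusted p = 0.0184) and -0.26 ± 0.08 in the low line (adjusted p = 0.0582). It did not pass after quantile normalization, at -0.05 ± 0.04 (adjusted p = 0.350), or as the mean of both probe sets, at 0.07 ± 0.12 (adjusted p = 0.684). The other probe set, 1439437_x_at, was dim, with signals of 5.55 to 56.4 in amygdala and 2.75 to 53.4 in hippocampus. Its difference, 0.40 ± 0.22, had the opposite sign and did not pass (adjusted p = 0.195).

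Pam did not pass between the tissues. Its median was 646 in amygdala and 733 in hippocampus, and the difference was -0.06 ± 0.15, with a 95% interval of -0.37 to 0.25 (adjusted p = 0.822). In the high line it was 0.00 ± 0.11 (adjusted p = 0.990) and in the low line -0.11 ± 0.27 (adjusted p = 0.853). The intervals were -0.24 to 0.24 in the high line and -0.69 to 0.46 in the low line.

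The granins moved in opposite directions between the tissues. Scg2, which encodes secretogranin II, read 1853 to 2963 in amygdala, with a median of 2287, and 1241 to 1506 in hippocampus, with a median of 1332. All 12 amygdala arrays lay above all 12 hippocampus arrays. The difference was 0.74 ± 0.06 (adjusted p = 1.27e-09), or 1.67-fold, with 0.77 ± 0.08 in the high line (adjusted p = 2.44e-05) and 0.71 ± 0.10 in the low line (adjusted p = 3.62e-04).

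Chgb, which encodes chromogranin B, gave the mirror image. It read 2625 to 2998 in amygdala, with a median of 2784, and 4374 to 5036 in hippocampus, with a median of 4717, and all 12 amygdala arrays lay below all 12 hippocampus arrays. The difference was -0.74 ± 0.04 (adjusted p = 1.42e-13), so that the hippocampus mean was 1.67-fold that of amygdala. It was -0.68 ± 0.06 in the high line (adjusted p = 9.17e-06) and -0.80 ± 0.06 in the low line (adjusted p = 1.98e-06).

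Chga, which encodes chromogranin A, was higher in amygdala by 0.39 ± 0.07 (adjusted p = 1.13e-04), or 1.31-fold. In the high line its signals ran from 379 to 498 in amygdala and from 231 to 332 in hippocampus, without overlap (10.6% of all probe sets separated there). That difference was 0.64 ± 0.11 (adjusted p = 0.00121). In the low line the ranges overlapped, 311 to 455 in amygdala and 314 to 388 in hippocampus, and the difference of 0.14 ± 0.09 did not pass (adjusted p = 0.393). The difference between the lines in this tissue difference, 0.50 ± 0.14, did not pass over all probe sets (adjusted p = 0.463). Of the 9 member probe sets 0 passed that test with limma, as did 0 of all 45037, while 7.08% of all had an unadjusted p under 0.05 and 1 of the 9 members did, Chga.

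**Figure D3:**
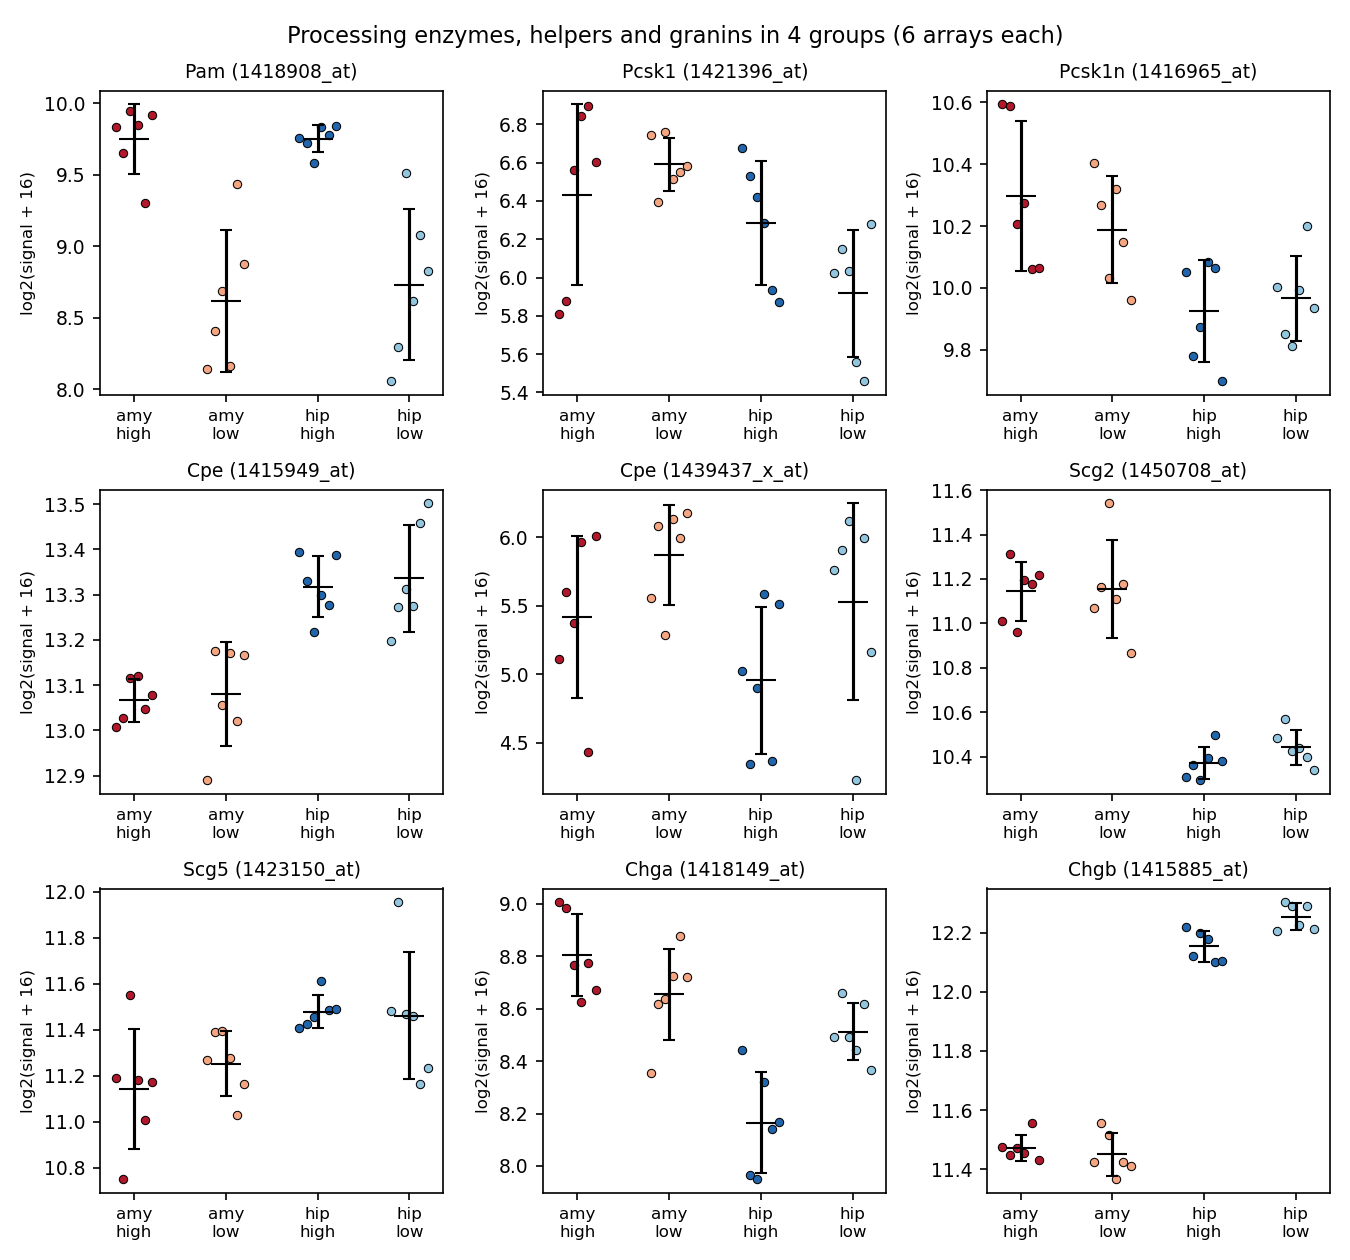
Log2(signal + 16) of the 9 member probe sets on each array, in amygdala (amy) and hippocampus (hip) of the high and low freezing lines, with the mean and SD of each group of 6 arrays; each panel has its own axis, which does not start at 0. Pam separates by line without overlap in hippocampus but not in amygdala, while Scg2, Chgb and Cpe (1415949_at) separate by tissue without overlap.

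**Figure D4:**
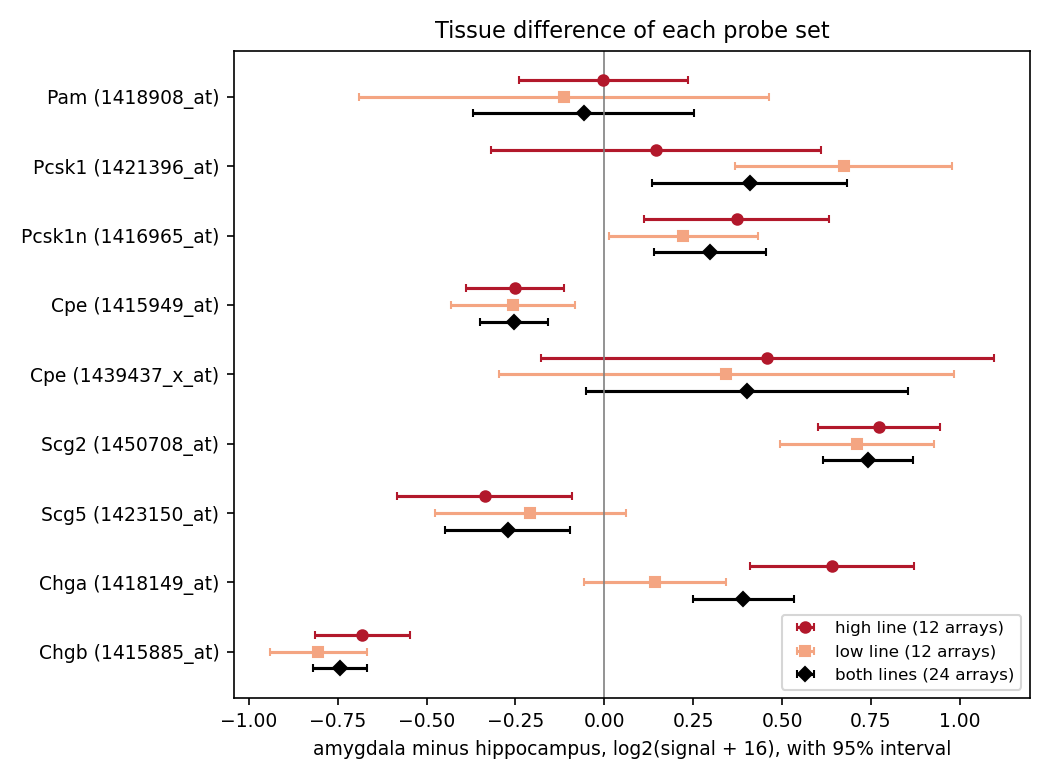
Tissue difference, amygdala minus hippocampus, of each member probe set on the log2(signal + 16) scale in the high line, the low line (12 arrays each) and both lines (24 arrays), with 95% intervals. Scg2 and Chgb lay at 0.74 and -0.74, and the intervals of Pam and of the dim Cpe probe set spanned 0 in all 3 fits.

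Some measures of the pieces and of the RNA moved with tissue, and within a tissue some also moved with line. Their part in the member differences was not tested. The 5′ control probe set for 18S ribosomal RNA read 295 to 1525 in amygdala and 3600 to 7093 in hippocampus, so tissue and preparation cannot be told apart. Within hippocampus it read 3600 to 5800 in the high line and 5859 to 7093 in the low line, without overlap. Line and preparation cannot be told apart there either. Of 17 hippocampus markers 15 were called lower and 1 higher in amygdala, and of 17 amygdala markers 13 were called higher and 1 lower. In hippocampus the hippocampus markers summed to 12049 to 13520.5 in the high line and 13760 to 15124 in the low line, without overlap. Of these 17 hippocampus markers 15 had a negative line difference there, and 0 were called. All 12 striatum markers were called higher in amygdala, with a summed signal of 6329 to 11321 there and of 1728 to 2111 in hippocampus. Between the lines in amygdala all 12 had a negative difference, high minus low (median -0.18), and 0 were called. Their amygdala sums overlapped, 6329 to 10548.5 in the high line and 6809 to 11321 in the low line. Of 10 meningeal fibroblast markers 8 were called lower in amygdala, with sums of 1912 to 7781 in amygdala and 6469 to 9180 in hippocampus. Of 9 oligodendrocyte markers 7 were called lower, with sums of 11786 to 14393 in amygdala and 13952 to 20663 in hippocampus. Of 10 interneuron markers 7 were called higher and 1 lower, with sums of 9354 to 10962 in amygdala and 5741 to 6722 in hippocampus, and of 9 astrocyte markers 2 were called higher and 5 lower, with sums of 16430 to 18756 in amygdala and 18719 to 20946 in hippocampus. Of 13 hypothalamus markers 6 were called higher, with sums of 547 to 1065 in amygdala and 309 to 603 in hippocampus. Of 9 cortex and claustrum markers 7 were called higher and 1 lower, with sums of 2123 to 3192 in amygdala and 1586 to 2253 in hippocampus. Of 10 microglia markers 3 were called higher and 0 lower, and 1 of 7 endothelial and 1 of 7 choroid plexus markers were called lower and 0 higher. The choroid plexus sums varied widely within groups. They ran from 638 to 13061.5 in amygdala of the high line and from 1554 to 14071 in that of the low line. In hippocampus they ran from 1979 to 14983 in the high line and from 1452 to 16509 in the low line. All 7 choroid plexus markers had a negative line difference in amygdala (median -0.37), and 0 were called. Of the 9 astrocyte markers 8 had a positive and 1 a negative line difference in amygdala (median 0.06), and 0 were called.

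Amygdala arrays 7 and 8 of the high line stood apart in RNA quality. Their ratio of 5′ to 3′ actin signal was 0.301 and 0.339, against 0.497 to 0.630 on the other 10 amygdala arrays. They gave the highest amygdala signals of Pcsk1n, 1530 and 1525, and of Chga, 498 and 490.0, and the lowest of Pcsk1. Without them the tissue difference was 0.56 ± 0.11 for Pcsk1 (adjusted p = 6.85e-04), 0.22 ± 0.07 for Pcsk1n (adjusted p = 0.0213) and 0.34 ± 0.07 for Chga (adjusted p = 7.28e-04). Scg5 no longer passed, as given above, nor did Cpe in the high line, at -0.23 ± 0.07 (adjusted p = 0.0717). Pam had a line difference in amygdala of 1.14 ± 0.25 without them, while the amygdala line difference of Pcsk1 became 0.13 ± 0.11.

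Other genes of the peptide secretory pathway were set beside the members, 1 probe set per gene, by the highest mean. Over all 18193 genes 17% were called higher and 13.1% lower in amygdala, and the median difference was 0.01. Of 6 other proprotein convertases 0 were called higher and 1 lower, Pcsk5 at -0.21 (adjusted p = 0.0403), with a list median of -0.02. Of 9 other carboxypeptidases and trimming proteases 0 were higher and 2 lower, with a median of -0.10. These were Cpm, a carboxypeptidase of the cell surface (-0.65, adjusted p = 6.96e-05), and Ctsl, cathepsin L (-0.23, adjusted p = 9.99e-04).

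Granule cargo was split as the member granins were. Of 6 other granins and cargo genes 2 were called higher and 3 lower, with a median of -0.01. Vgf, a granin-like neuropeptide precursor, was higher by 0.78 (adjusted p = 2.24e-08) and Nucb2, the nesfatin precursor, by 0.40 (adjusted p = 5.97e-05). Nptx1, neuronal pentraxin, was lower at -1.20 (adjusted p = 3.36e-16), as was Bdnf, a neurotrophin, at -0.61 (adjusted p = 1.53e-06).

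Of 12 genes for copper and ascorbate supply or Pam partners 1 was called higher and 1 lower, with a median of 0.05. Cyb561, the granule membrane cytochrome that regenerates ascorbate, averaged 8.95 ± 0.12 in amygdala and 8.10 ± 0.14 in hippocampus (SD, n = 12 each), a difference of 0.85 (adjusted p = 2.14e-11). Kalrn, whose protein binds the cytosolic tail of Pam, averaged 10.39 ± 0.14 in amygdala and 11.42 ± 0.06 in hippocampus, a difference of -1.02 (adjusted p = 3.21e-13). Atp7a, which carries copper into the secretory pathway, was at 0.23 and did not pass (adjusted p = 0.0791). Of 6 other peptide modifying enzymes 1 was called higher, P4hb, a disulfide isomerase (0.26), and 2 lower, the tyrosine sulfotransferases Tpst1 (-0.25) and Tpst2 (-0.20), with a list median of -0.07.

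Of 21 genes for dense core granule formation and release 6 were called higher and 3 lower, with a median of 0.01. Baiap3, a Munc13 family protein of granule exocytosis, was 2.84 higher (adjusted p = 1.47e-15) and Syt9, a synaptotagmin, 1.13 higher (adjusted p = 1.02e-06). Syt7, another synaptotagmin, was at -0.41 (adjusted p = 4.55e-06) and Cadps, a granule priming factor, at -0.19 (adjusted p = 0.00148).

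The precursors of peptides that Pam amidates were also split. Of 26 measured among 33 listed, 10 were called higher and 3 lower in amygdala, with a median of 0.05. Tac2, the neurokinin B precursor, was higher by 2.35 (adjusted p = 3.22e-09) and Crh, corticotropin-releasing hormone, by 1.85 (adjusted p = 2.02e-12), while Cck, cholecystokinin, was at -0.48 (adjusted p = 1.19e-07) and Grp, gastrin-releasing peptide, at -0.47 (adjusted p = 2.52e-05). Of 14 measured precursors among 16 listed whose main peptides are not amidated, 8 were called higher and 0 lower, with a median of 0.47. Penk, the enkephalin precursor, led with 3.57 (adjusted p = 2.43e-18), followed by Cartpt, the CART peptide precursor, with 1.84 (adjusted p = 3.49e-14). The precursor lists share genes with the marker lists above, so the 2 results are not separate. Penk and Tac1 are also striatum markers, Tac2 an amygdala marker, and Sst, Npy and Vip interneuron markers. Hypothalamus markers among the precursors include Avp, Oxt, Pmch, Trh, Pomc and Gal. Of 13 measured peptide degrading enzymes 6 were called higher and 0 lower, with a median of 0.01, led by Ecel1 (2.29) and Ece2 (0.61), both of the endothelin-converting enzyme family.

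**Figure D5:**
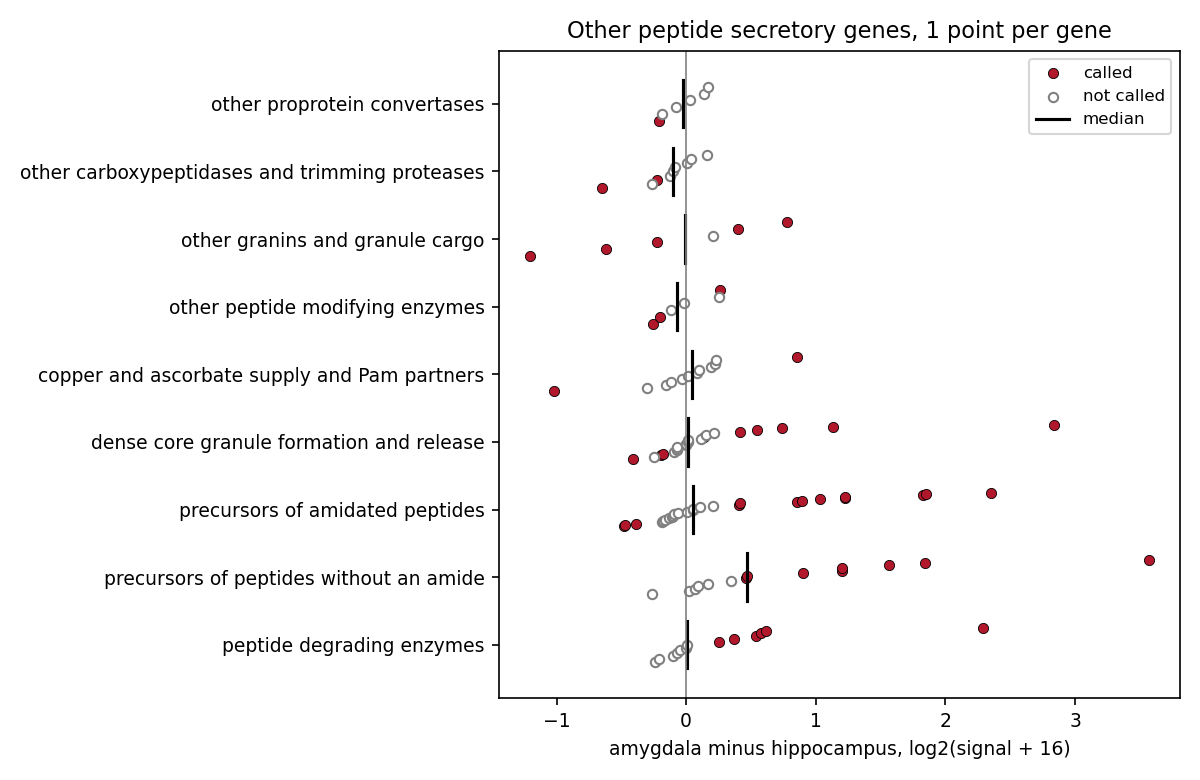
Tissue difference, amygdala minus hippocampus, on the log2(signal + 16) scale for the measured genes of 9 lists, 1 point per gene; filled points were called at an adjusted p under 0.05 and the bar is the list median. The list medians lay between -0.10 and 0.05 except for the precursors of peptides without an amide, at 0.47.

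In the line comparison 0 genes of any of these 9 lists were called in amygdala, in hippocampus or averaged over the tissues, by limma over all probe sets. Of the 113 genes, 12 in amygdala and 10 in hippocampus had an unadjusted p under 0.05 (10.6% and 8.85%), against 5.63% and 8.69% of all genes, and 8 did on average over the tissues (7.08%, against 8.41% of all genes). Cyb561 differed between the lines by 0.07 in amygdala and 0.14 in hippocampus, and Kalrn by -0.04 in each. Not all differences were that small. Rab3a, of the granule formation and release list, differed by -0.60 in amygdala and -0.56 in hippocampus. Over both lines its SD was 0.52 in amygdala and 0.53 in hippocampus. For the precursors named above as higher in amygdala, the line differences lay between -0.26 and 0.01 in amygdala and between -0.52 and 0.20 in hippocampus.

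Genes whose pattern was most like that of Pam were sought among 8068 genes with a mean of at least 7. Over the 24 arrays, which include the line difference of Pam, Pearson's r was highest for Sfxn4 (0.820), a mitochondrial sideroflexin, Wdfy1 (0.777), Srd5a3 (0.692), Psmd6 (0.683), a proteasome subunit, and Pwp1 (0.676). Spearman's rho for these was 0.760, 0.807, 0.573, 0.457 and 0.694. After each group's mean was subtracted, r was highest for Gnb1 (0.782), a G protein beta subunit, Wdfy1 (0.720), Psmd6 (0.715), Klhl7 (0.682) and Sox9 (0.682). Spearman's rho for these was 0.764, 0.735, 0.575, 0.637 and 0.636. Between the lines Gnb1 went against Pam. Its means in the high and low line were 10.13 and 10.59 in amygdala, and 10.29 and 10.78 in hippocampus. The others of this second list had the higher mean in the high line in both tissues. No member was counted here, and the arrays of a group share line and tissue. Among the members themselves after group means were subtracted, the correlation furthest from 0 was that of Pcsk1 with Pcsk1n, at -0.523 over 24 arrays and -0.317 without amygdala arrays 7 and 8.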

How the data were processed

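The values are linear intensities, 1 per probe set and array, as deposited by the authors; the signal algorithm is not given in the sources used here. Judged by the values, the authors scaled each array to a trimmed mean (2% of probe sets cut at each end) of 150.001. Of 45101 probe sets 64 controls were left out and 45037 tested. The platform annotation gives 34945 of them 1 symbol, and 34741 took their current symbol through the Entrez ID from the RefSeq table of GRCm38.p6. Array medians ran from 43.3 to 55.6. The number of arrays limits the precision.

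Groups came from the sample descriptions. Signals were tested as log2(value + 16), which understates the change of dim genes, with limma 3.58.1 (lmFit, eBayes) in R 4.3.3. Benjamini-Hochberg adjustment was over all probe sets, and a call is an adjusted p under 0.05. Tissue and interaction contrasts used the 4 group means over 24 arrays, and comparisons within 1 line or 1 tissue used those 12 arrays. Fits were tested on simulated data. Motif searches and figures used Python 3.11.15 with matplotlib 3.10.9, and exact permutation tests scipy 1.17.1. Alternatives were other pseudocounts (1 and 64), a filter on the lowest 40% of probe sets, quantile normalization, median centring, an intensity trend, means of probe sets, array number as a block, and left-out arrays.

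The members and lists were chosen with earlier results of these data known. All members are named with all probe sets. Each pathway list names the 2 called genes with the largest tissue difference in each direction, by the probe set of highest mean. Atp7a and Rab3a were added after their values were seen. The 5 genes most like Pam were taken by Pearson's r.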

Additional observations from a re-analysis of the deposited data

Results flagged for a closer look

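In a comparison of each group's highest and lowest array with the others of that group, 1 of 36 combinations of group and member probe set stood apart. Chgb read 2994 on array 11 of amygdala of the high line, while the other 5 arrays of that group lay between 2745 and 2832. On the log2 scale the gap to the nearest array was 0.643 of the whole range, above the critical value of 0.625. Chance sets about 1 in 20 such groups apart. The same array had the lowest Pam signal of its group, 614.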

How the results depend on the processing

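Of 1753 values computed under alternatives for 67 results, 1724 were scored as kept and 29 as changed. A tested value was kept where it stayed on its side of the threshold and, where called, kept its direction. A value with no test was kept where it moved by less than the spread between arrays. A count of member probe sets called was kept where it stayed within a set ratio of the main count. The number of member probe sets called was 6 to 7 between the tissues, 3 to 6 in the high line and 3 to 4 in the low line. The main counts were 7, 4 and 3, and all these counts were scored as kept. The 2 called values that turned in sign were both of Cpe as the mean of its 2 probe sets, 0.0737 between the tissues and 0.104 in the high line, and its low line value, not called, also turned, to 0.04. Quantile normalization left Cpe at -0.05 between the tissues (adjusted p = 0.350) and -0.10 in the high line (adjusted p = 0.336), and median centring at -0.19 in the high line (adjusted p = 0.103); the cause was not tested. With pseudocount 64, the filter, or an intensity trend, Pcsk1n and Scg5 passed in the high line and Cpe passed in the low line. Pseudocount 64 also lowered the Pcsk1 tissue difference to 0.25. The line difference of Pam stayed between 1.04 and 1.17 in amygdala and between 0.94 and 1.05 in hippocampus, and between 0.89 and 1.30 with single arrays left out.

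Array numbers are shared between the tissues but were not shown to pair samples. Over 27022 probe sets same-numbered arrays correlated at -0.06 to 0.10 after group means were subtracted, 0 of 12 pairs exceeded 0.1, and 2 of 12 arrays correlated best with their own number. With array number as a fixed replicate block, Pcsk1 no longer passed between the tissues (0.41, adjusted p = 0.0739), nor did Cpe in the high line (-0.25, adjusted p = 0.0909). As a random replicate block, with a correlation of 0.00672, it changed no member's call between the tissues.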

Other observations

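The 5 measured genes on each side of Pam on chromosome 1, by order in the RefSeq table, had line differences between -0.27 and 0.24 in amygdala and between -0.02 and 0.55 in hippocampus. Gin1, the nearest on one side, differed by 0.19 ± 0.11 in amygdala and 0.02 ± 0.13 in hippocampus (SE), and Ppip5k2, the next, by 0.03 ± 0.12 and 0.04 ± 0.09. Macir differed by 0.11 ± 0.08 and -0.02 ± 0.09. On the other side, B230216N24Rik, the nearest, differed by -0.02 ± 0.12 in amygdala and 0.06 ± 0.16 in hippocampus. 1810006J02Rik differed by 0.02 ± 0.07 and 0.42 ± 0.19, and Slco6d1 by -0.27 ± 0.19 and 0.27 ± 0.21. Cdh20, the fifth gene, differed by -0.04 ± 0.15 and 0.55 ± 0.09. The mean log2 value was 4.20 for 1810006J02Rik, 4.76 for Slco6d1 and 4.55 for Gm7967. It was 4.57 for Slco6c1 and 4.62 for Slco6b1, against 9.21 for Pam. All of these but Pam lay near the floor of the scale, so little can be read from their differences. These genes were looked at after the values of Pam were known.

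Within the low line, Pam on same-numbered arrays of the 2 tissues gave Pearson's r = 0.634 (exact permutation p = 0.183, adjusted over 18 relations 0.550) and Spearman's rho = 0.771 (exact permutation p = 0.103), n = 6. Without the 2 arrays farthest from the median r was 0.512. In the high line r was -0.139 (exact permutation p = 0.861). None of the 18 relations, 9 probe sets in 2 lines, passed after adjustment.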
